A study of Mus musculus with 12 samples.

Results

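The MHC class I and antigen processing genes followed here are 10 of the 24098 genes in the deposited table, found by symbol: H2-K1, H2-D1, B2m, Tap1, Tap2, Tapbp, Psmb8, Psmb9, Psmb10 and Nlrc5. H2-K1 and Psmb8 were chosen for a peak in 1 library, the SSEA-1- cells of day 16 (D16S-), and the other 8 were chosen by name as their partners with the results for these data known. The level in D16S- and every comparison with it are therefore descriptions, and the peak itself is not a finding. All 10 genes had an FPKM (fragments normalised to transcript length and to all mapped fragments) of at least 1 in some library, as did 14178 genes of the table, and none of their 120 values was at 0.

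The data were mRNA-Seq libraries of mouse cells on the way from fibroblasts to pluripotent stem cells, 1 library for each of 12 conditions. The starting mouse embryonic fibroblasts (MEFs) came from E13.5 embryos that carry an IRES-EGFP cassette behind Oct4, and all reprogramming cells had received Oct4, Sox2, Klf4 and c-Myc (OSKM) from pMXs retroviruses. The cells of days 0 and 3 (D0, D3) were not sorted. On days 6 and 9 the cells were split by Thy-1, a fibroblast surface protein, into Thy-1- (D6T-, D9T-) and Thy-1+ cells (D6T+, D9T+), and on days 12 and 16 by SSEA-1, a sugar epitope on the surface of pluripotent cells, into SSEA-1+ (D12S+, D16S+) and SSEA-1- cells (D12S-, D16S-). The study took Thy-1- and then SSEA-1+ cells as the successful route and the opposite fractions as the unsuccessful one. The end points were induced pluripotent stem cells (iPSCs) and the ES-D3 line of mouse embryonic stem cells (mESCs), which were not reprogrammed.

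MHC class I molecules display short peptides from inside the cell to cytotoxic T cells. The peptides are cut by proteasomes, carried into the endoplasmic reticulum by the transporter of Tap1 and Tap2, and loaded, with the help of tapasin (Tapbp), onto a heavy chain (H2-K1 or H2-D1) that is paired with beta-2-microglobulin (B2m). In cells exposed to interferon gamma the catalytic subunits Psmb8, Psmb9 and Psmb10 take the places of Psmb5, Psmb6 and Psmb7 to form the immunoproteasome, and Nlrc5 is the transactivator of class I genes. Pluripotent cells are known for low surface class I.

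The sum of FPKM per library was between 484968 (D16S+) and 648264 (D0). Relative depth, read from the smallest steps of low genes, was between 0.967 (D9T+) and 1.56 (D6T-) times that of D0, with 1.51 in D16S+ and 0.999 in D16S-. The interval that the authors' software modelled around each value was wide, with a median half-width of 100.4% of the FPKM over the 120 values. In each of the 10 comparisons below, the intervals of the 2 libraries overlapped for 10 of the 10 genes. Over all 66 pairs of libraries they were apart in 11 pairs for Psmb8, in 2 for Psmb9 and in 1 for Tap2 (D16S- against iPSCs), and in no pair for the other 7 genes. The same counts were not made over all genes. Intervals this wide overlap easily, so the overlap says little about these genes. With 1 library per condition no test between conditions was possible, and differences are described by their size on the scale of log2(FPKM + 1), where at least 2-fold means a difference of at least 1.

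Of the 10 genes, 7 lie on chromosome 17. In the mm9 build (annotation GENCODE M1, whole gene with exons and introns) 6 of them sit close together, namely Tapbp (chr17:34052844-34066235), H2-K1 (chr17:34132962-34137278), Psmb9 (chr17:34318932-34324697), Tap1 (chr17:34324498-34334170), Psmb8 (chr17:34334666-34338399) and Tap2 (chr17:34340472-34353266). H2-D1 lies further along at chr17:35399675-35404444. B2m is on chromosome 2 (chr2:121973422-121978819), and Nlrc5 (chr8:96996663-97051172) and Psmb10 (chr8:108459628-108462292) are both on chromosome 8. In the table H2-D1 shares 1 combined locus with the class I genes H2-L and H2-Q1 and with LOC547349, so the split of reads among these related genes is uncertain. B2m likewise shares 1 combined locus, with Patl2 and Trim69.

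Sequences upstream of the gene starts are shown because H2-K1, H2-D1 and B2m, on 2 chromosomes, share a layout of short motifs there. They are the 250 bases before the most upstream RefSeq start in the GRCm38.p6 build, which differs from the build of the files, and 8 of the 10 genes had an entry. The motifs described here, searched on both strands, were GAAANNGAA (as in interferon-stimulated response elements), GGGNNTTCC (as in NF-kappaB sites), TGACG (as in CRE and X2 boxes) and CCAAT (as in Y boxes, ATTGG when read on the other strand). Capitals mark every match, and in these sequences no matches overlapped.
H2-K1, chr17:34000348-34000597, minus strand: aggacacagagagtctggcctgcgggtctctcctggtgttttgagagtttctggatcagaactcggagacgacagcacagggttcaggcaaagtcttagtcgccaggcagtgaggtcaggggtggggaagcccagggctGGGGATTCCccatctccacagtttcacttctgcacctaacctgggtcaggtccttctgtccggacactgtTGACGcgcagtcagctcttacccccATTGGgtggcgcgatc
H2-D1, chr17:35262844-35263093, plus strand: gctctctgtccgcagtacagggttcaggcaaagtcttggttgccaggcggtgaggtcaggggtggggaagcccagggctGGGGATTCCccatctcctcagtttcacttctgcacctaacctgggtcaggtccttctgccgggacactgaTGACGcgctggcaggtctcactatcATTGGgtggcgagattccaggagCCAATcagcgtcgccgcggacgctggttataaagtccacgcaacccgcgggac
B2m, chr2:122147437-122147686, plus strand: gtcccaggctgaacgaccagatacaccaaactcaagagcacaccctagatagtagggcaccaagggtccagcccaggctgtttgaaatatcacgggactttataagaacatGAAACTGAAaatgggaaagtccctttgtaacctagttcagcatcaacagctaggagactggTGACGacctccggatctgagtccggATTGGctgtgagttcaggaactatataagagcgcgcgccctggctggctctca
Tap1, chr17:34187331-34187555, plus strand, the bases between the starts of Psmb9 and Tap1: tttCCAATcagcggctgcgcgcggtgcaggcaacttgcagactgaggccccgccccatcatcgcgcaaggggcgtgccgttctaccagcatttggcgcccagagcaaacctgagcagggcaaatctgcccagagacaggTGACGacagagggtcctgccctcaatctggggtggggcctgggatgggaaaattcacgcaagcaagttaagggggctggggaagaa

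In H2-K1, H2-D1 and B2m the first base of TGACG lay 25 bases before the first base of ATTGG. Of all 32851 starts in the RefSeq table, 18 (0.0548%) held this pair at this distance, a count made after the layout had been seen. In H2-K1 and H2-D1 the motif GGGNNTTCC lay a further 70 bases before TGACG, and from that motif to the start of H2-K1 the sequences were identical at 98 of 111 positions (88.3%). Tap1 and Psmb9 are read in opposite directions from RefSeq starts 225 bases apart, so that the stretch printed for Tap1 is upstream of both of these starts. In the mm9 positions of GENCODE M1 the genes overlap at these ends, with Tap1 from 34324498 and Psmb9 up to 34324697.

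Taken singly, the motifs were common. TGACG was upstream of 5 of the 8 genes (H2-K1, H2-D1, B2m, Tap1 and Psmb9) and of 17.8% of all starts, and CCAAT upstream of 6 (the same 5 and Tapbp) and of 33.8%. GGGNNTTCC was upstream of H2-K1 and H2-D1 and of 4.98% of all starts. GAAANNGAA was found for B2m and in 7.13% of all starts. Only this exact run of letters was searched, so windows without it may hold other forms of interferon-stimulated response elements. The window of Psmb10 held none of these letters in order. A match is a run of letters and was not tested for binding.

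The heavy chain genes were low in MEFs and in pluripotent lines and highest in D16S-. H2-K1 was at 53.2 FPKM in D0 and 21.9 in D3, at 67.7, 137, 169 and 138 FPKM in D6T-, D9T-, D12S+ and D16S+, at 95.8, 354, 339 and 941 FPKM in D6T+, D9T+, D12S- and D16S-, and at 36.4 FPKM in iPSCs and 49.5 in mESCs. Its value in D16S- was 2.66 times the second highest, D9T+, and the lowest was in D3. H2-D1 was at 48.4 FPKM in D0 and 26.9 in D3, at 40.6, 87.6, 77.9 and 69.8 FPKM in D6T-, D9T-, D12S+ and D16S+, at 75.2, 153, 153 and 386 FPKM in D6T+, D9T+, D12S- and D16S-, and at 14.4 FPKM in iPSCs and 25.0 in mESCs. D16S- was again highest, D12S- and D9T+ followed with nearly the same value, and iPSCs were lowest.

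B2m was at 289 FPKM in D0 and 151 in D3, at 117, 244, 153 and 153 FPKM in D6T-, D9T-, D12S+ and D16S+, at 281, 431, 364 and 903 FPKM in D6T+, D9T+, D12S- and D16S-, and at 16.4 FPKM in iPSCs and 10.4 in mESCs. Unlike the heavy chains, B2m, the light chain that all class I molecules share, was already high in MEFs, where it was 289 FPKM against 48.4 for H2-D1. In iPSCs and mESCs it was below every library of the time course. The ratio of the summed FPKM of H2-K1 and H2-D1 to that of B2m was therefore far from constant, a measure chosen after the values were seen. It was 0.351 in D0 and 0.323 in D3, 1.35 in D16S+, 1.47 in D16S-, 3.10 in iPSCs and 7.15 in mESCs. In D16S- both chains were high, at 1327 FPKM for the heavy chains together and 903 FPKM for B2m, and in mESCs both were low, at 74.5 and 10.4 FPKM.

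**Figure D1:**
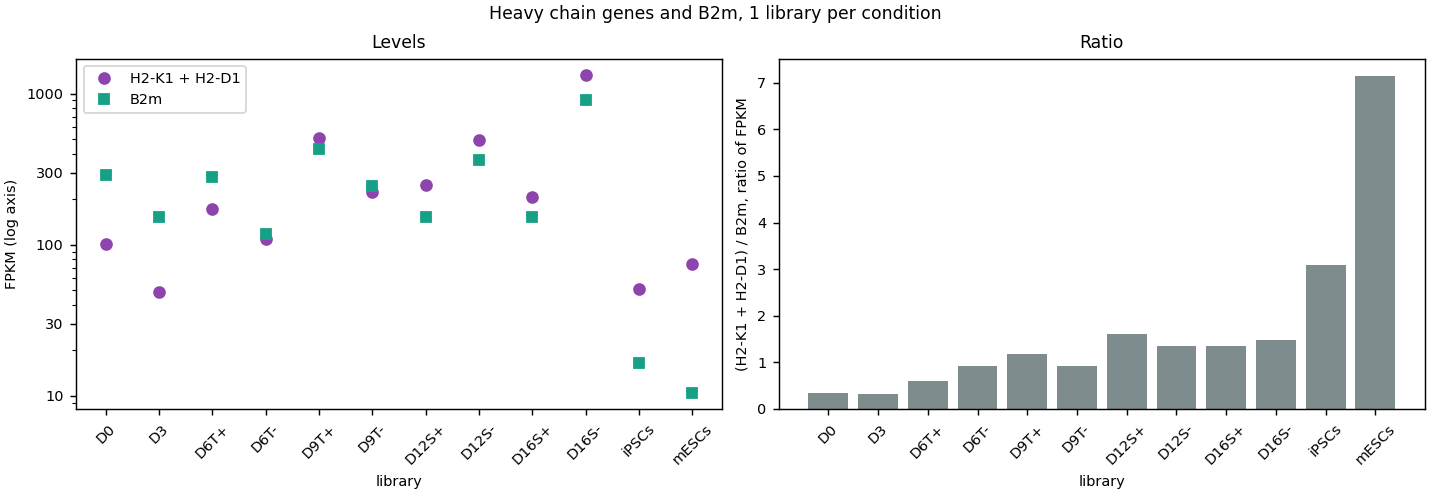
FPKM of H2-K1 and H2-D1 together and of B2m (left, log axis) and the ratio of the heavy chains to B2m (right) in each of the 12 libraries, 1 library per condition. The ratio is 0.351 in D0, 1.47 in D16S- and 7.15 in mESCs, since B2m is at 16.4 and 10.4 FPKM in the pluripotent lines.

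Both chains of the peptide transporter were also highest in D16S-, at lower levels than the heavy chains. Tap1 was at 18.9 FPKM in D0 and 15.0 in D3, at 17.5, 32.5, 37.9 and 37.5 FPKM in D6T-, D9T-, D12S+ and D16S+, at 28.3, 51.6, 72.5 and 139 FPKM in D6T+, D9T+, D12S- and D16S-, and at 6.13 FPKM in iPSCs and 16.0 in mESCs. Tap2 was at 23.6 FPKM in D0 and 7.89 in D3, at 13.2, 29.1, 33.4 and 27.0 FPKM in D6T-, D9T-, D12S+ and D16S+, at 34.6, 66.2, 58.8 and 138 FPKM in D6T+, D9T+, D12S- and D16S-, and at 1.54 FPKM in iPSCs and 4.07 in mESCs. By FPKM, Tap1 was the member least changed by day 3 (1.26 times lower, against 1.39 times for Nlrc5), while Tap2 was 2.99 times lower. On the scale of log2(FPKM + 1) Nlrc5 changed least and Tap1 came next. The ratio of Tap1 to Tap2 FPKM was 1.01 in D16S- and between 0.780 and 1.90 in the time course, but 3.98 in iPSCs and 3.95 in mESCs, where Tap2 was at 1.54 and 4.07 FPKM.

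Tapbp was at 111 FPKM in D0 and 32.9 in D3, at 50.6, 87.5, 116 and 123 FPKM in D6T-, D9T-, D12S+ and D16S+, at 75.9, 126, 131 and 238 FPKM in D6T+, D9T+, D12S- and D16S-, and at 51.9 FPKM in iPSCs and 14.8 in mESCs. Tapasin holds the empty class I molecule at the transporter. Its levels spanned a narrower range over the time course than those of Tap1 and Tap2, from 32.9 FPKM in D3 to 238 FPKM in D16S-, and its lowest value was in mESCs.

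Psmb8 and Psmb9 covered the widest ranges of the 10 genes. Psmb8 was at 37.3 FPKM in D0 and 1.40 in D3, at 13.7, 48.8, 78.7 and 80.6 FPKM in D6T-, D9T-, D12S+ and D16S+, at 46.8, 135, 132 and 398 FPKM in D6T+, D9T+, D12S- and D16S-, and at 1.57 FPKM in iPSCs and 0.250 in mESCs. Psmb9 was at 5.23 FPKM in D0 and 0.941 in D3, at 8.25, 29.2, 40.1 and 47.0 FPKM in D6T-, D9T-, D12S+ and D16S+, at 20.1, 62.5, 68.1 and 205 FPKM in D6T+, D9T+, D12S- and D16S-, and at 2.45 FPKM in iPSCs and 6.39 in mESCs. Psmb8, the subunit that replaces Psmb5, was 26.6 times lower in D3 than in D0. Psmb9, which replaces Psmb6, was low already in D0, and its FPKM in D16S- was 39.2 times that of D0.

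Psmb10 was at 84.6 FPKM in D0 and 32.0 in D3, at 44.8, 39.5, 59.2 and 43.2 FPKM in D6T-, D9T-, D12S+ and D16S+, at 74.8, 97.1, 72.6 and 129.9 FPKM in D6T+, D9T+, D12S- and D16S-, and at 15.1 FPKM in iPSCs and 25.7 in mESCs. Psmb10, which replaces Psmb7, was well expressed in MEFs, and its FPKM in D16S- was 1.54 times that of D0. The subunits they replace moved far less. Psmb5 was between 84.7 and 157 FPKM over the 12 libraries, Psmb6 between 216 and 451 and Psmb7 between 93.6 and 234.

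As a share of the FPKM of each pair, Psmb8 was 19.2% of Psmb8 plus Psmb5 in D0, 1.06% in D3, 46.7% in D16S+, 82.4% in D16S-, 1.16% in iPSCs and 0.174% in mESCs. Psmb9 was 1.50% of Psmb9 plus Psmb6 in D0, 14.9% in D16S+ and 47.4% in D16S-. Psmb10 was 37.0% of Psmb10 plus Psmb7 in D0, 16.3% in D16S+ and 55.6% in D16S-. The mean log2(FPKM + 1) of the 3 inducible subunits minus that of the 3 constitutive ones was above 0 in D16S- alone among the 12 libraries (0.80), and was -2.87 in D0, -5.06 in D3, -5.31 in mESCs and -5.47 in iPSCs. These are shares of mRNA and not of assembled proteasomes.

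**Figure D2:**
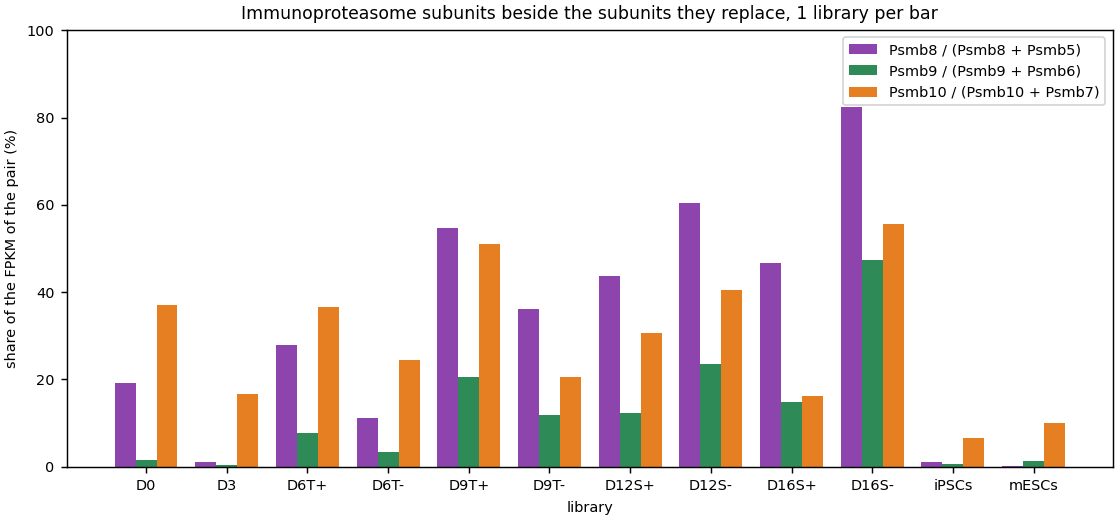
Share of the FPKM of each pair (percent) taken by Psmb8, Psmb9 and Psmb10 beside Psmb5, Psmb6 and Psmb7, in each of the 12 libraries. In D16S- the shares are 82.4%, 47.4% and 55.6%, and the share of Psmb8 is 1.06% in D3 and 0.174% in mESCs.

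Nlrc5 was at 1.00 FPKM in D0 and 0.721 in D3, at 1.28, 3.47, 2.88 and 2.51 FPKM in D6T-, D9T-, D12S+ and D16S+, at 3.77, 8.88, 6.04 and 18.5 FPKM in D6T+, D9T+, D12S- and D16S-, and at 0.123 FPKM in iPSCs and 0.222 in mESCs. Nlrc5 was the lowest of the 10 genes in each of the 12 libraries and, like the others, was highest in D16S-. The mm9 annotation lists it as a lincRNA, although it encodes a protein, and its locus in the table is shared with the microRNA gene Mir7072.

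**Figure D3:**
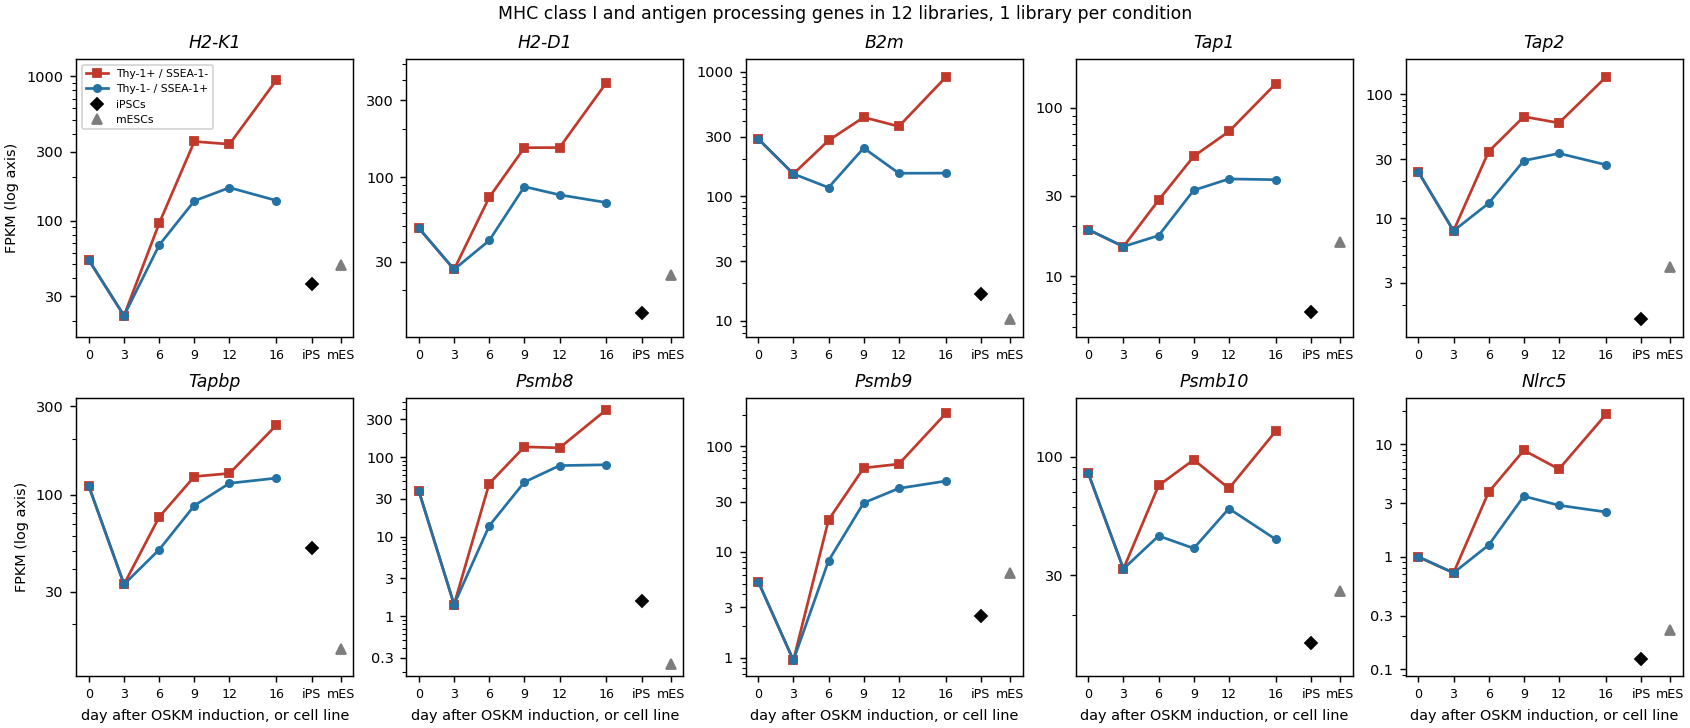
FPKM (log axis, scaled for each panel) of the 10 genes on days 0 to 16 in the Thy-1+ and SSEA-1- fractions (red squares) and the Thy-1- and SSEA-1+ fractions (blue circles), and in iPSCs (black diamonds) and mESCs (grey triangles), 1 library per point. The red point of day 16 is the highest of all 12 in each panel, and H2-K1 stands at 941 FPKM there against 138 FPKM in the blue fraction.

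Across the genes, D16S- was the highest library in 10 of 10, D9T+ was second in 6 and D12S- in 4. The lowest library was iPSCs for 5 genes (H2-D1, Tap1, Tap2, Psmb10 and Nlrc5), mESCs for 3 (B2m, Tapbp and Psmb8) and D3 for 2 (H2-K1 and Psmb9). Neighbours in these orders did not differ beyond the modelled intervals for any of the 10 genes. The pairs given above as apart for Psmb8, Psmb9 and Tap2 were not neighbours.

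The first comparison set D3 against D0. No library at D3 lacked OSKM, so the factors, the virus and time in culture cannot be told apart here. From D0 to D3 all 10 were lower, 6 of them at least 2-fold (H2-K1, Tap2, Tapbp, Psmb8, Psmb9 and Psmb10), beside 8.67% of all 14178 genes that were at least 2-fold lower, and 0 of 10 were at least 2-fold higher, beside 5.76%. The median difference was -1.31, against -0.02 over all genes. Psmb8 had the largest difference (-3.99) and Nlrc5 the smallest (-0.22), but Nlrc5 was near 1 FPKM in both libraries. Among known regulators of class I genes, 4 of 18 listed were also at least 2-fold lower, among them Irf1 (45.8 to 9.03 FPKM), Stat2 (34.1 to 3.76) and Irf9 (38.8 to 5.54).

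The next comparisons set the sorted fractions of each day against each other. All 10 genes were higher in the Thy-1+ fraction (days 6 and 9) or the SSEA-1- fraction (days 12 and 16) on each of the 4 days. That is 40 of 40 differences, and these directions also held under both other scalings of the libraries. Another pseudocount cannot change a direction, so it is no check on them. Of all 14178 genes, 3516 (24.8%) were higher on all 4 days. The day 16 fraction entered the choice of H2-K1 and Psmb8 directly, and since all members were chosen with earlier results known, the other days are descriptions too.

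On day 6, 5 of 10 were at least 2-fold higher in D6T+ than in D6T- (B2m, Tap2, Psmb8, Psmb9 and Nlrc5), beside 9.47% of all genes, and 0 were at least 2-fold lower, beside 2.93%. The median difference was 0.97, from 0.50 for H2-K1 to 1.70 for Psmb8. On day 9, 6 of 10 were at least 2-fold higher in D9T+ (H2-K1, Tap2, Psmb8, Psmb9, Psmb10 and Nlrc5), beside 6.45% of all genes, and 0 lower, beside 1.81%, with a median of 1.11. The FPKM ratios of the immunoproteasome genes on day 9 were 2.78 for Psmb8, 2.14 for Psmb9 and 2.46 for Psmb10. With libraries scaled to equal totals 5 of 10 genes were at least 2-fold higher on day 9, and Psmb9 no longer was.

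On day 12 the fractions were closer. Only B2m was at least 2-fold higher in D12S- (1.25), beside 3.03% of all genes, and 0 were at least 2-fold lower, beside 4.79%. The median was 0.83, H2-K1 (1.00, just under the threshold), H2-D1 (0.96) and Tap1 (0.92) lay close below 2-fold, and Tapbp differed by 0.18. On day 16, 9 of 10 were at least 2-fold higher in D16S-, beside 15.2% of all genes, 0 were at least 2-fold lower, beside 11.8%, and the median was 2.30. On the scale of log2(FPKM + 1) the largest difference was that of H2-K1 (2.76), and Tapbp (0.95) was the member under 2-fold. By FPKM the largest ratio was that of Nlrc5 (7.36), ahead of H2-K1 (6.83). The median over all genes was between -0.02 and 0.02 on the 4 days.

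**Figure D4:**
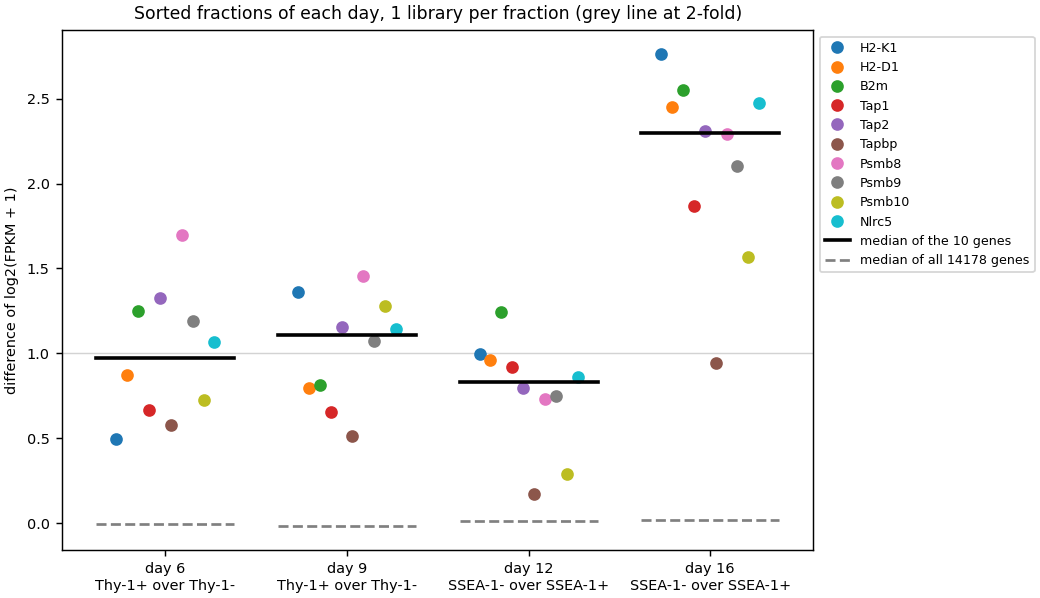
Difference of log2(FPKM + 1) between the fraction of the unsuccessful route and the opposite fraction of the same day for each of the 10 genes (coloured points), with their median (black line) and the median of all 14178 genes (dashed), 1 library per fraction. All points lie above 0, and the median of the 10 genes is 0.97, 1.11, 0.83 and 2.30 on days 6, 9, 12 and 16.

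Along the unsuccessful route, 7 of 10 were at least 2-fold higher in D16S- than in D12S- (all but Tap1, Tapbp and Psmb10), beside 2.03% of all genes, and 0 were at least 2-fold lower, beside 0.536%. The median was 1.32. Against D0, 9 of 10 were at least 2-fold higher in D16S- (all but Psmb10), beside 12.8% of all genes, and 0 lower, beside 11.4%, with a median of 2.89. Both comparisons use the library on which 2 of the genes were chosen. By FPKM the largest ratios to D0 were those of Psmb9 (39.2), Nlrc5 (18.4) and H2-K1 (17.7), and the smallest after Psmb10 were those of Tapbp (2.14) and B2m (3.12).

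On the successful route the genes were still detected in D16S+. H2-K1 was at 138 FPKM and Psmb8 at 80.6 FPKM there, both above their D0 values. H2-D1, Tap1, Tap2, Tapbp, Psmb9 and Nlrc5 were also above theirs, and only B2m (153 FPKM) and Psmb10 (43.2 FPKM) were below. The 7 listed markers of pluripotent cells summed to 4760 FPKM in D16S+ against 3524 FPKM in iPSCs. Most of each sum was Dppa5a, at 3582 and 2441 FPKM. Esrrb, Zfp42, Dppa4 and Utf1 were higher in iPSCs, and Nanog, Tdgf1 and Dppa5a were higher in D16S+. In iPSCs 10 of 10 genes lay at least 2-fold below D16S+, beside 7.77% of all genes, and 0 were higher, beside 4.38%, a comparison chosen after the values were seen. The median was -2.32, and by FPKM Psmb8 was 51.3 times, Psmb9 19.2 times and B2m 9.34 times lower. The iPSCs were an established culture and D16S+ a sorted one, and culture and stage cannot be told apart here.

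Between the end points of the conversion, iPSCs had 7 of 10 genes at least 2-fold below D0 (all but H2-K1, Psmb9 and Nlrc5), beside 21.6% of all genes, and 0 were at least 2-fold higher, beside 18.7%. The median was -1.58 and the largest difference that of B2m (-4.06). By FPKM Nlrc5 was 8.15 times and Psmb9 2.13 times lower, and with a pseudocount of 0.1 the count was 9 of 10, all but H2-K1. This comparison shares D0 with those of D3 and D16S- above. Between the pluripotent lines, mESCs had 2 genes at least 2-fold above iPSCs (Tap1 and Psmb9), beside 7.41% of all genes, and 2 at least 2-fold below (Tapbp and Psmb8), beside 6.79%.

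Over the 12 libraries the 45 pairs of genes had a median Pearson correlation of log2(FPKM + 1) of 0.88, from 0.65 for B2m with Psmb9 to 0.98 for H2-D1 with Nlrc5. Without D16S- the median was 0.85 over 11 libraries. The points of each pair share their libraries and their sort, so these are descriptions. The 10 other genes most like the mean of the members, among 10795 genes that reached 5 FPKM in some library, included Gbp7 (r = 0.99), Gbp3, Gbp9, Ifi47, Igtp, H2-Q1, H2-T23, Irgm2 and Tnfrsf14 (r = 0.95). Gbp7, Gbp3 and Gbp9 encode guanylate-binding proteins, and Ifi47, Igtp and Irgm2 immunity-related GTPases, both families known as interferon-induced. Igtp was at 376 FPKM in D16S-, 51.3 in D16S+, 30.0 in D0, 0.836 in D3 and 2.04 in iPSCs. The make-up of these 10 depended on the measure, since 2 of them were among the first 10 by Spearman correlation and 4 with a pseudocount of 0.1.

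Genes of the same pathway were described in the same way between D16S- and D16S+, from lists written with earlier results known. Of 26 other class I genes in the table, 20 reached 1 FPKM in some library, and of these 16 were at least 2-fold higher in D16S-, beside 15.2% of all genes, and 3 at least 2-fold lower, beside 11.8%. H2-Q4, a gene of the Q region, was at 286 against 48.6 FPKM, H2-T23, which presents leader peptides to natural killer cell receptors, at 278 against 29.6 FPKM, H2-L at 107 against 4.64 FPKM and H2-T9 at 99.2 against 20.5 FPKM. The 3 lower ones were H2-M5 (0.723 against 5.58 FPKM), H2-Bl (6.86 against 21.7) and Raet1e (1.40 against 15.0). Since reads with more than 1 locus were removed, levels of these near-identical genes are uncertain.

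None of the other core subunits of the proteasome was at least 2-fold higher in D16S-. Of the 3 constitutive catalytic subunits 0 were at least 2-fold higher in D16S- and Psmb7 was lower (104 against 222 FPKM). Of the 11 other core subunits 0 were higher and 4 lower (Psma1, Psma2, Psma4 and Psma6), with a median of -0.68. Of all genes, 15.2% were at least 2-fold higher in D16S- and 11.8% lower. The activator subunits Psme1 and Psme2, which open the core and are also interferon-induced, were at 343 against 215 FPKM and at 274 against 202 FPKM, both under 2-fold. Across the 12 libraries both were highest in D16S-, and like the members both were at least 2-fold lower in D3 than in D0 (-1.24 and -1.31) and in iPSCs than in D16S+ (-1.40 and -1.57). Of 8 chaperones and trimming enzymes of the loading complex 1 was at least 2-fold higher, the tapasin relative Tapbpl (25.5 against 5.43 FPKM). Calreticulin (Calr) was at 676 against 472 FPKM. In lists of 3, 8 and 11 genes, 0 or 1 higher is not far from the 15.2% of all genes.

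Class II genes, which present peptides to helper T cells, were low. Of 11 in the table, 8 reached 1 FPKM in some library and 4 of these were at least 2-fold higher in D16S- (beside 15.2% of all genes), namely Cd74 (24.4 against 4.94 FPKM), H2-Ab1 (11.4 against 1.66), H2-DMa (6.95 against 2.07) and H2-Aa (2.61 against 0.494). Ciita, the class II transactivator, did not exceed 0.453 FPKM in any library, whereas its relative Nlrc5 reached 18.5 FPKM.

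**Figure D5:**
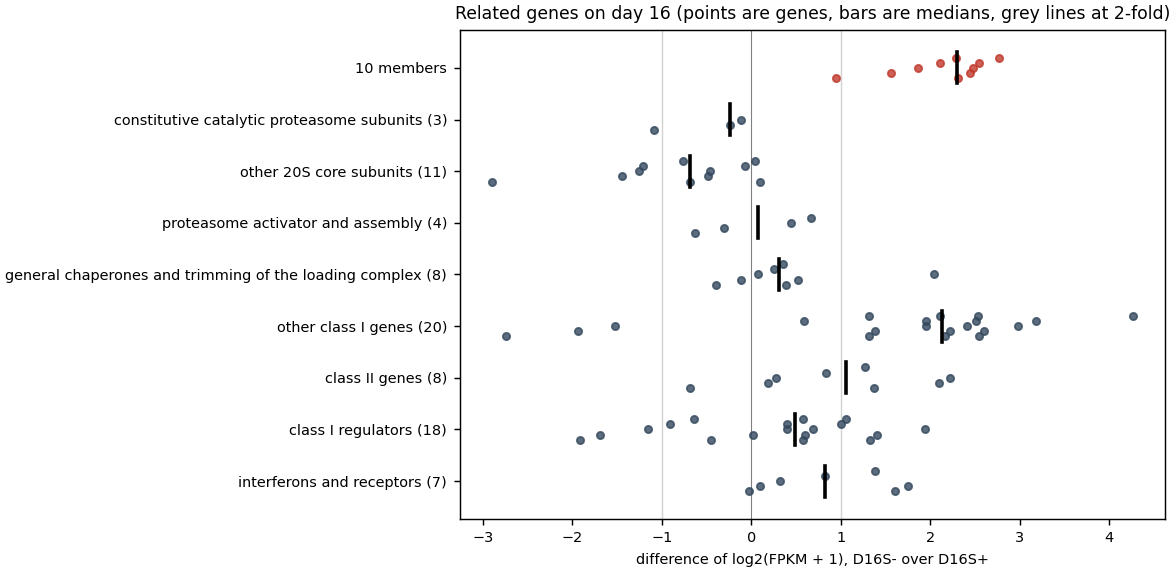
Difference of log2(FPKM + 1) between D16S- and D16S+ for the 10 members (red) and for the genes of related lists that reached 1 FPKM in some library (dark points, number in brackets), with the median of each list (black bar) and lines at 2-fold. The members have a median of 2.30 and the other core subunits of the proteasome one of -0.68, and the day 16 values entered the choice of the members.

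Among 18 regulators of class I genes, 4 were at least 2-fold higher in D16S- than in D16S+ and 3 lower, shares not far from the 15.2% and 11.8% of all genes. The higher ones included the NF-kappaB subunit Rela (61.2 against 23.8 FPKM), Irf9 (31.9 against 14.8) and Irf2 (15.4 against 3.29). The lower ones were Trim28 (164 against 531 FPKM), Ezh2 (5.06 against 21.9) and Nfyb (8.94 against 21.1). Irf1, a direct activator of class I promoters, was at 174 against 114 FPKM. Its level was 129 FPKM in D9T+, 13.6 in iPSCs and 17.6 in mESCs.

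Interferon genes themselves were very low. Of 5 in the table (Ifng, Ifnb1, Ifna1, Ifna2 and Ifna4) 0 reached 1 FPKM in any library, and the highest value was 0.959 FPKM for Ifng in D16S-. Ifng was at 0.0287 FPKM in D16S+, 0.162 in D12S- against 0.0838 in D12S+, and 0.449 in D9T+ against 0 in D9T-. On day 6 the order was the other way, at 0.173 FPKM in D6T+ and 0.251 in D6T-. All these values are near the floor. Their receptors were present, and Ifnar2 (34.8 against 10.8 FPKM), Ifngr1 (28.2 against 7.68) and Ifngr2 (12.9 against 4.36) were at least 2-fold higher in D16S- than in D16S+, 3 of the 7 genes of this list that reached 1 FPKM, beside 15.2% of all genes. Signalling by interferon was not measured.

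Because leukocytes carry much class I, 13 leukocyte markers were read beside the members. Their summed FPKM was between 24.2 and 195 over the libraries, 92.0 in D16S+ and highest in D16S-, where Cd68 (115 FPKM), Laptm5 (57.3) and Csf1r (19.9) made up nearly all of it. Of the 9 that reached 1 FPKM in some library, Csf1r and Laptm5 were at least 2-fold higher in D16S- than in D16S+ and Cd3e was lower. Of all genes, 15.2% were higher and 11.8% lower by this measure. Lyz2 (0.509 against 0.033 FPKM) and Tyrobp (0.897 against 0.072) stayed under 1 FPKM in both. Ptprc, the CD45 antigen of all leukocytes, was at 0.027 FPKM in D16S- and at most 0.425 FPKM in any library. The part of such cells in the levels of the members was not tested. Of 5 endothelial markers, Cdh5 (5.77 against 1.89 FPKM) and Tek (7.74 against 1.91) were higher in D16S- and Pecam1 (2.39 against 31.9), which pluripotent cells also express, was lower, and their sum was 16.2 FPKM in D16S- and 36.3 FPKM in D16S+.

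Fibroblast and pluripotent markers moved with the sorts as the labels state. The 7 fibroblast markers summed to 7158 FPKM in D0, 2705 in D6T+ against 434 in D6T-, 2240 in D9T+ against 374 in D9T-, 700 in D12S- against 258 in D12S+ and 458 in D16S- against 35.9 in D16S+. They were thus higher in the fractions in which the class I genes were higher, but they were lower in D16S- than in D0 while the class I genes were higher. The 7 pluripotent markers summed to 133 FPKM in D16S- and 4760 FPKM in D16S+. In bulk libraries fewer cells of a type and less RNA per cell cannot be told apart, and the part of cell make-up in the fraction differences was not tested.

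The genes around the 6 clustered members on chromosome 17 were read in the same comparison. Between 34000000 and 34400000 (mm9), 28 genes reached 1 FPKM, of which 6 were members. Of the other 22, 4 were at least 2-fold higher in D16S- than in D16S+ (H2-K2, H2-DMa, Ring1 and Slc39a7) and 2 lower (Kifc1 and BC033916), with a median of 0.18, beside 15.2% and 11.8% of all genes. Daxx, a histone chaperone gene whose locus lies close to Tapbp, was at 31.4 FPKM in D16S- and 50.1 in D16S+, and Brd2, between H2-K1 and Psmb9, at 86.7 and 85.5 FPKM.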

How the data were processed

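Groups were taken from the titles of the labels, and each column was assigned by its day and by the sign of the marker, written as "pos" and "neg". The authors mapped stranded TruSeq reads to mm9 with STAR, removed reads with more than 2 mismatches or several loci, and deposited FPKM from Cuffdiff with a modelled interval per value. Versions, annotation and library scaling were not given in the sources used here. Unique mapping lowers genes with near-identical copies, class I genes among them. A further 12 columns, the status words, were not used. Values were analysed as log2(FPKM + 1), which understates differences of low genes, after keeping genes of at least 1 FPKM in at least 1 library. Counts of genes at least 2-fold apart were made without a test (Python 3.11.15, NumPy 2.4.6, pandas 2.3.3, Matplotlib 3.10.9), and the functions were tested on simulated data. Absolute depth is unknown. The members and lists were chosen with earlier results of these data known. Named genes were all members, from each list the 4 highest and any gene at least 2-fold apart between D16S- and D16S+, the 10 genes most like the members, and the markers, of which some items are not reported here. Alternatives were another pseudocount, another fold, no filter and 2 scalings.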

Additional observations from a re-analysis of the deposited data

How the results depend on the processing

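Of 191 recomputed values, 174 stayed within 1.5 times of the reported value or count, 17 moved and 0 reversed. Some of those that stayed could not have moved. All 10 members passed the filter, so leaving it out gave the same 10 medians, 10 counts higher and 10 counts lower. A count of 0 at 2-fold also stays 0 at 4-fold. A threshold of 4-fold left 1 member lower in D3 than in D0, 4 lower in iPSCs than in D0 and 6 lower in iPSCs than in D16S+. It left 0 members higher on days 6, 9 and 12 and in D16S- against D12S-, and 0 higher and 0 lower in mESCs against iPSCs. In D16S-, 7 members stayed higher than in D16S+ and 7 higher than in D0. The share of all genes past 4-fold was not computed, so these counts have no background. With a pseudocount of 0.1, 3 members were at least 2-fold higher in D12S-, the median of iPSCs over D16S+ was -2.90 and the proteasome index of mESCs was -5.99. With summed FPKM the index was -4.02 in D3 and -4.68 in mESCs. Scaling to equal totals, which shifted the median of all genes by up to 0.19 (D16S- over D0), left 1 member higher in mESCs than in iPSCs, and 5 lower in D3 than in D0, 5 higher in D9T+ and 6 lower in iPSCs than in D0, each 1 fewer than reported. Of the 10 genes most like the members, 2 were shared with Spearman correlation and 4 with a pseudocount of 0.1. No paired analysis was possible because the groups compared had 1 library each and shared a single replicate number, and days were not treated as replicates. Differences cannot be set against replicate spread, and absolute depth is unknown. The comparison of iPSCs with D16S+ was added after seeing the data.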

Other observations

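Within the class I family, H2-M5 and H2-Bl were higher in SSEA-1+ than in SSEA-1- cells, the opposite of the 10 genes. H2-M5 was at 0.181 FPKM in D0, 5.82 in D12S+, 5.58 in D16S+, 36.6 in iPSCs and 14.5 in mESCs, against 1.30 in D12S- and 0.723 in D16S-. H2-Bl was at 0.364 FPKM in D0, 15.9 in D12S+, 21.7 in D16S+, 6.94 in iPSCs and 13.3 in mESCs, against 1.86 in D12S- and 6.86 in D16S-. Among class II genes, H2-Ab1 was at 21.3 FPKM in mESCs, 0.202 in iPSCs and 0.221 in D0, Cd74 at 16.4, 14.0 and 1.17 FPKM, and H2-DMa at 6.71, 2.06 and 9.17 FPKM. No test was possible for these values, which were picked out after they were seen.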
